A study of Mus musculus with 10 samples.

Results

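Ephrins, Slits, netrins and their receptors are the classical axon guidance families, and 35 genes of these families were measured among the 22180 genes of the arrays. Members were taken by gene name: ephrin A and B ligands (Efna, Efnb), Eph A and B receptors (Epha, Ephb), Slit ligands, Robo receptors, netrins (Ntn) and the netrin receptors of the Unc5 family. A probe set had to carry exactly 1 gene symbol, and where a gene had several the brightest over all arrays was used. The 35 genes had 36 probe sets, and only Ephb1 had more than 1. Ephb2 and Ntn5 were not analysed here, because no probe set named them alone.

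The study compared sorted cells labelled as type 2 alveolar epithelial cells (AEC2s), the surfactant-making cells of the lung, from mice at postnatal day 4. Axin2+ samples (5 arrays) came from Axin2CreERT2-TdTom mice, in which the Axin2 gene, a target of Wnt signalling, drives a tamoxifen-dependent Cre, and were sorted as TdTomato+ and EpCAM+ and as CD31- and CD45-. SP-C+ samples (5 arrays) came from SftpcCreERT2-R26REYFP mice, whose Cre is driven by the surfactant protein C gene, and were sorted by YFP after 24 h of tracing. All mice were of mixed stock (C57BL/6, 129S6 and CD-1). The labels enter no treatment for either group, and how the Cre was induced is not given in the sources used here. The labels do not say whether replicates were separate animals, so p-values measure the spread between these samples, which may be technical. A shared description speaks of day 3 and adult cells, whereas every title and age label says day 4. Mouse line, reporter and gate differed together between the groups and cannot be told apart from the cell label.

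Ephrins are membrane-bound ligands that signal to Eph receptor tyrosine kinases on a touching cell and can also signal back into their own cell, mostly causing cells to repel one another or to keep boundaries. Slits are secreted and repel cells through Robo receptors. Netrins are laminin-related secreted proteins that attract through Dcc and Neo1 and repel through Unc5 receptors. In the lung these families are known from branching of the airways, growth of vessels and septation of the alveoli.

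Values are log2 array intensities as the authors normalized them, and a difference is Axin2+ minus SP-C+ on that scale with its moderated standard error (SE). A gene was called at an adjusted p under 0.05 in limma, with the Benjamini-Hochberg adjustment over all 22180 genes. A gene's level is compared between arrays only, never with that of another gene. Some values are also given without SP-C+ replicates 4 and 5 or without SP-C+ replicates 1, 2 and 3. That division was made after the arrays' values were known, so such values, and which genes pass with them, are descriptions and no independent test. With SP-C+ replicates 1, 2 and 3 left out, only replicates 4 and 5 of that group remain. A gene can then miss the threshold with its difference unchanged. Fewer cells of a type and less RNA per cell cannot be told apart in such bulk samples.

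The 2 sorts differed widely outside these families. Of 15 AEC1 markers (type 1 cells, the flat gas-exchange cells) 15 were higher in Axin2+ arrays, with a median difference of 2.71 and list means of 11.61 to 11.96 in Axin2+ and 9.29 to 9.73 in SP-C+ arrays. Of 14 ciliated cell markers 12 were higher (median 1.95), and of 10 club cell markers 5 were higher and 1 lower (0.49). Of 14 cell cycle genes 10 were higher (1.18), and of 13 neuroendocrine and neuronal markers 4 (0.02). Of 15 AEC2 markers 3 were lower (-0.15). Endothelial markers had 0 of 15 called in limma (2 at an unadjusted p under 0.05), with a median of -0.23. Mesenchymal markers had 1 of 15 lower (-0.08), and leukocyte markers 1 higher and 1 lower of 14 (-0.26). Of the 14 leukocyte markers 13 had a negative difference, and only Csf1r had a positive one. Negative differences were also found in 13 of 15 AEC2, 11 of 15 endothelial and 11 of 15 mesenchymal markers, and in 13331 of all 22180 genes. The largest called change of each list was in Spock2 (4.54, AEC1), Cdhr3 (4.36, ciliated), Scgb1a1 (2.73, club), Cdk1 (1.96, cell cycle), Pcsk1 (0.81, neuroendocrine), Cebpa (-0.62, AEC2), Pdgfra (-0.49, mesenchymal) and Csf1r (2.50, leukocyte). SP-C+ replicate 1 had the highest endothelial (7.42), mesenchymal (6.56) and leukocyte (6.31) list means of all arrays. Axin2 itself averaged 7.93 ± 0.12 in Axin2+ arrays and 8.46 ± 0.06 in SP-C+ arrays (SD, n = 5), with a limma difference of -0.53 ± 0.08 (SE, adjusted p = 0.000328). No source used here gives the place of its probe set relative to the inserted Cre, and the value therefore does not check the label. How far any of these lists contributes to the differences described next was not tested.

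In Axin2+ cells the basement membrane netrin Ntn4, the receptor Epha4, the netrin Ntn3 and the ligand Efna1 were higher, and the ligands Efna3, Efna5 and Efnb2 and the receptor Robo2 were lower. Ntn4 was 2.97-fold and Epha4 1.73-fold higher, while Efna3 was 2.23-fold lower. Slits, Unc5 receptors and Eph B receptors had no call in limma, and of these 11 genes only Unc5b had an unadjusted p under 0.05. The other 27 of the 35 members did not pass. Each direction held 4 members, against a background of 8.61% of all genes called higher and 8.95% called lower. As a whole the families had 22.9% called, where all genes had 17.6%, and a median difference of -0.01, where all genes had -0.04. The members were brighter as a list, with 22 of the 35 above the 50th percentile of mean level. When the genes above it were tested alone, 4 of these 22 were higher and 6 lower, beside 34.1% of all such genes called. This mean level is taken over both groups. Ntn4 and Ntn3 had SP-C+ means (5.88 and 6.16) below the percentile (6.366), and Efna5 had an Axin2+ mean (6.32) below it. These called genes were kept only through the group where they were higher. The differences in shares were not tested. The groups did not overlap in 6 members, with Axin2+ above in 4 (background 7.38%) and below in 2 (7.66%). The split depends on scaling: with each array centred on its median, 4 members were higher (7.04% of all genes) and 8 lower (19.9%), as the split of all genes moved to 1561 higher and 4412 lower, against 1909 and 1985 as deposited.

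**Figure D1:**
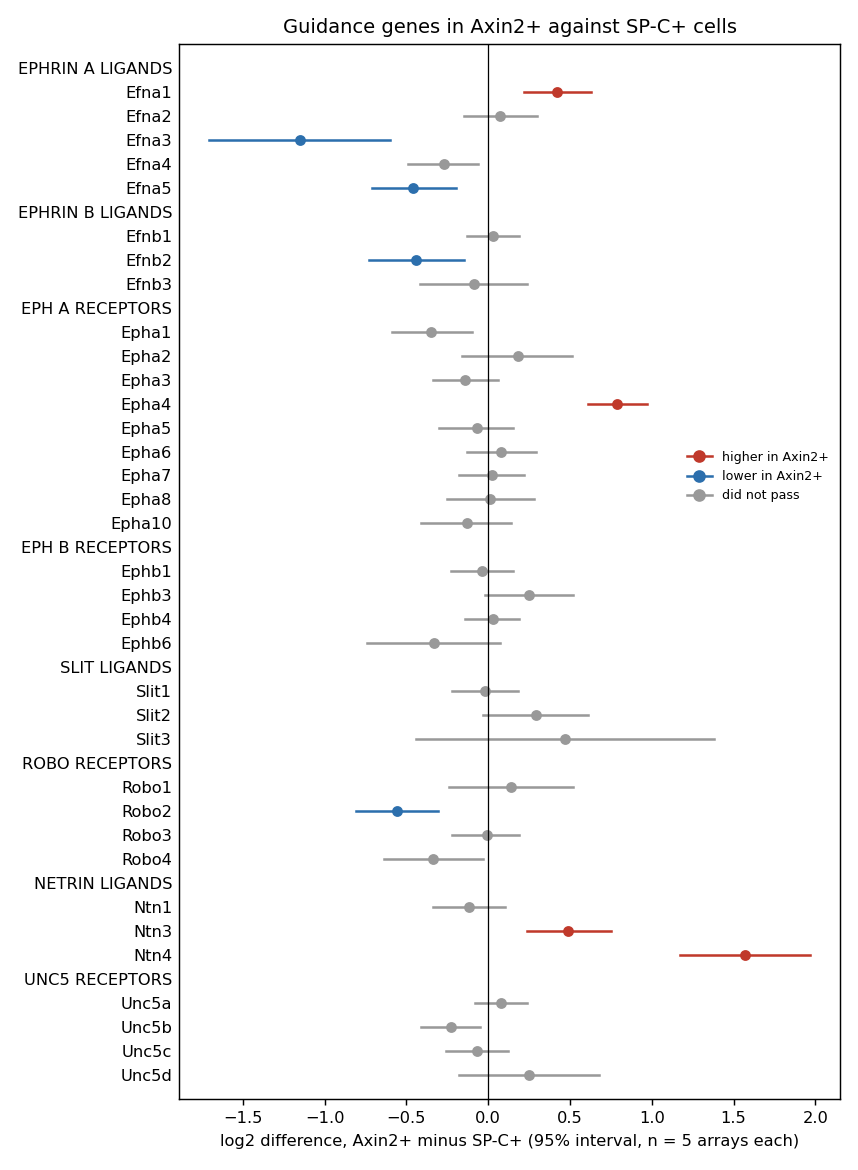
Difference of each of the 35 guidance genes between the groups, grouped by family. The horizontal axis is the log2 difference, Axin2+ minus SP-C+, with dots for the estimate and lines for its 95% interval (n = 5 arrays each). Red genes were higher and blue genes lower at an adjusted p under 0.05. Ntn4 (1.57) and Epha4 (0.79) stand farthest to the right and Efna3 (-1.15) farthest to the left, and Slit3 has the widest interval.

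Promoter sequences are shown for the strongest rises, Ntn4 and Epha4, and for Efna1 and Efna3, which neighbour each other on chromosome 3 and moved in opposite directions. They are the 250 bases before the RefSeq start on GRCm38.p6, written 5′ to 3′ along the gene. For Efna1 and Efna3, which have several listed starts, the start farthest upstream was taken. Capitals mark a match to 1 of 3 short motifs searched on both strands: CTTTGA (the TCF/LEF core, through which Wnt signalling acts), GGAATG (TEAD, the partner of YAP) and CAAGTG (NKX2-1, the lung epithelial factor).
Ntn4, chr10:93640799-93641048, plus strand: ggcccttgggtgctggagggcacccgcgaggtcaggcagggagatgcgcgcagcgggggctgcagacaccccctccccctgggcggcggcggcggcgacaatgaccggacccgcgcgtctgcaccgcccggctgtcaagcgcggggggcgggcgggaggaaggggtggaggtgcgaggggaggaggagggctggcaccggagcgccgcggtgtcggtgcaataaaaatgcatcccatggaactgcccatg
Epha4, chr1:77515089-77515338, minus strand: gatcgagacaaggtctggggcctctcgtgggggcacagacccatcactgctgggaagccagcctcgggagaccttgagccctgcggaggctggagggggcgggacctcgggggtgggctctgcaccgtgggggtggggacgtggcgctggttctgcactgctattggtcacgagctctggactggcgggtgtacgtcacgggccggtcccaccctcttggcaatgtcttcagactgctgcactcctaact
Efna1, chr3:89280952-89281201, minus strand: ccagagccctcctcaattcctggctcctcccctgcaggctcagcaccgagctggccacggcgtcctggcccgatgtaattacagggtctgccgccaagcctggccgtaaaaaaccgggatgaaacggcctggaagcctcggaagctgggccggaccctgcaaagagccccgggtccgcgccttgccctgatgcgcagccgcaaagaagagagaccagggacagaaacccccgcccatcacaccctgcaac
Efna3, chr3:89322940-89323189, minus strand: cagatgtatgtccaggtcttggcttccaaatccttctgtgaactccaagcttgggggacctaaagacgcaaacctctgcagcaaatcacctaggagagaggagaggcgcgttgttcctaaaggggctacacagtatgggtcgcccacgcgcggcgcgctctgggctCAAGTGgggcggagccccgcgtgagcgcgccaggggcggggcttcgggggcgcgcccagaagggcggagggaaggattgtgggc
Of these 4 windows only that of Efna3 held a match, the NKX2-1 letters 84 bases before its start. The window of the other listed Efna3 start, not shown, held no match. All 4 windows shown are rich in G and C, from 63.6% in Efna3 to 73.2% in Ntn4. RefSeq windows were found for 31 of the 35 members, 36 windows in all. The TCF/LEF core was in 2 of the 36 (5.56%), against 13.8% of 32817 windows of all genes, the TEAD letters in 5 (13.9%, against 12.6%) and the NKX2-1 letters in 3 (8.33%, against 11.6%). Among called members the TEAD letters were in the windows of Ntn3 and Efnb2. A match describes these letters only.

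Ntn4, which encodes a netrin of basement membranes that binds laminin, showed the largest rise of the families. It measured 7.38, 7.13, 7.94, 7.26 and 7.52 in Axin2+ arrays, against 6.29, 5.66, 6.16, 5.92 and 5.34 in SP-C+ arrays. Every Axin2+ array lay above every SP-C+ array. The difference was 1.57 ± 0.19 (SE, adjusted p = 5.91e-05 in limma), and it lay between 1.41 and 1.81 under the 22 alternative settings. Several of these, such as the filters on mean level and the stricter threshold, cannot move a gene's difference.

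Ntn3, a further secreted netrin, measured 6.38, 6.65, 7.06, 6.54 and 6.62 in Axin2+ arrays, against 6.13, 6.20, 6.02, 6.35 and 6.08 in SP-C+ arrays. The groups did not overlap but came within a few hundredths of each other, at Axin2+ replicate 1 and SP-C+ replicate 4. The difference was 0.49 ± 0.12 (adjusted p = 0.0109 in limma), and it missed the threshold when SP-C+ replicates 1, 2 and 3 were left out (0.43, adjusted p = 0.137). Ntn1, the founding netrin of vertebrate axon guidance, averaged 7.10 ± 0.13 in Axin2+ arrays, against 7.22 ± 0.19 in SP-C+ arrays (SD, n = 5). Its difference was -0.12 with a 95% interval of -0.34 to 0.10.

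Netrin receptors had no call. Unc5b, a receptor best known from blood vessels, measured 7.25, 7.48, 7.14, 7.30 and 7.37 in Axin2+ arrays, against 7.55, 7.40, 7.54, 7.68 and 7.53 in SP-C+ arrays. Only Axin2+ replicate 2 reached into the SP-C+ range, and the difference of -0.23 (interval -0.41 to -0.05) had an adjusted p of 0.0754 in limma. It passed with median centring, with quantile normalization and among genes above the 50th percentile of mean level (adjusted p = 0.0124, 0.0204 and 0.0392). Unc5a and Unc5c, both below that percentile, differed by 0.08 and -0.07. Dcc and Neo1, netrin receptors outside the families' name rule that were picked after their values were seen, had no call either, with differences of -0.01 ± 0.07 (adjusted p = 0.928 in limma) and -0.15 ± 0.12 (0.458). Dcc averaged 4.45 in Axin2+ and 4.46 in SP-C+ arrays, below the 25th percentile of mean level (4.768), where background signal limits what can be seen.

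Epha4, a receptor that binds ephrins of both classes, had the smallest adjusted p of the families. It measured 10.25, 10.19, 10.27, 10.13 and 10.26 in Axin2+ arrays, against 9.47, 9.24, 9.37, 9.42 and 9.65 in SP-C+ arrays. The groups were far apart, and the Axin2+ arrays spread less (SD 0.06) than the SP-C+ arrays (SD 0.15). The difference was 0.79 ± 0.08 (adjusted p = 2.19e-05 in limma) and lay between 0.68 and 0.86 under the 22 alternatives, several of which cannot move it.

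**Figure D2:**
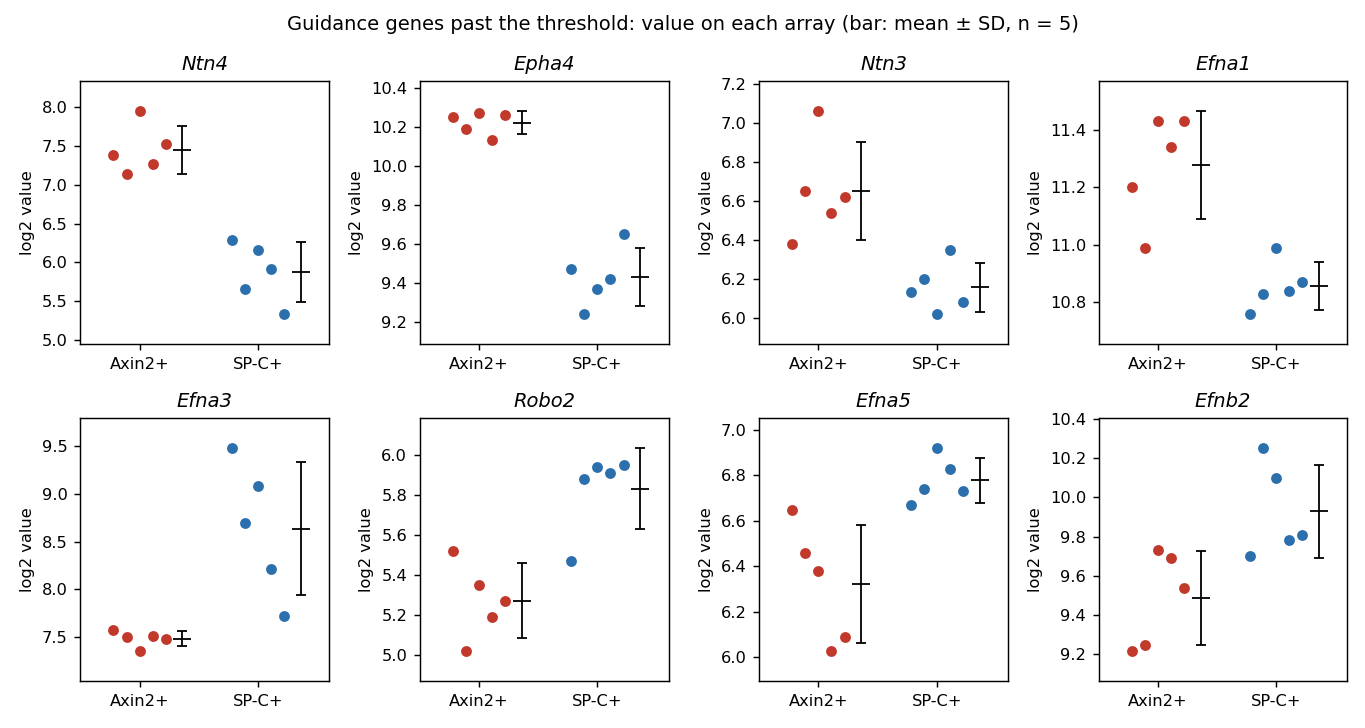
Value of each array for the 8 guidance genes past the threshold. The vertical axes are log2 values on a scale of their own per gene. Dots are arrays, in the order of replicates 1 to 5, and bars give the mean ± SD (n = 5). Axin2+ arrays (red) lie above all SP-C+ arrays (blue) for Ntn4, Epha4, Ntn3 and Efna1 and below all of them for Efna3 and Efna5, while Robo2 and Efnb2 overlap.

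The other 8 Eph A receptors did not pass. Epha1 came closest. It measured 8.57 to 8.74 in Axin2+ arrays, against 9.26, 8.71, 9.08, 9.29 and 8.82 in SP-C+ arrays. Its difference was -0.35 ± 0.11 (adjusted p = 0.0555 in limma), and it passed in 7 of the 22 alternatives, with an adjusted p down to 0.0109 under median centring. Epha2, a receptor of epithelia that prefers Efna1, averaged 10.02 ± 0.25 in Axin2+ arrays, against 9.85 ± 0.31 in SP-C+ arrays (SD, n = 5). Its difference was 0.18 with an interval of -0.16 to 0.51. Epha7 averaged 10.45 ± 0.14 in Axin2+ arrays, against 10.42 ± 0.14 in SP-C+ arrays, with an interval of -0.18 to 0.22 for the difference. Epha3, Epha5, Epha6, Epha8 and Epha10 lay below the 50th percentile of mean level, with differences between -0.14 and 0.08.

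Eph B receptors also had no call among 4. Ephb4, the receptor of Efnb2 that marks veins, averaged 9.17 ± 0.03 in Axin2+ arrays, against 9.15 ± 0.12 in SP-C+ arrays (SD, n = 5), and the interval of its difference ran from -0.14 to 0.19. Ephb3, a receptor of intestinal crypts, averaged 9.35 ± 0.15 in Axin2+ arrays, against 9.10 ± 0.26 in SP-C+ arrays. Its difference was 0.25 (interval -0.02 to 0.52). The brighter of the Ephb1 probe sets gave a difference of -0.04 and the dimmer one -0.05.

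Ephrin A ligands, which are held in the membrane by a lipid anchor, moved in opposite directions. Efna1 measured 11.20, 10.99, 11.43, 11.34 and 11.43 in Axin2+ arrays, against 10.76, 10.83, 10.99, 10.84 and 10.87 in SP-C+ arrays. The lowest Axin2+ array and the highest SP-C+ array are equal at this rounding, and unrounded the Axin2+ array was the higher. The difference was 0.42 ± 0.09 (adjusted p = 0.0075 in limma), and without SP-C+ replicates 1, 2 and 3 it was 0.43 and did not pass (adjusted p = 0.0611).

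Efna3 measured 7.57, 7.50, 7.36, 7.51 and 7.48 in Axin2+ arrays, against 9.48, 8.70, 9.08, 8.21 and 7.72 in SP-C+ arrays. The Axin2+ arrays were close together (SD 0.08), whereas the SP-C+ arrays spread over more than a log2 unit (SD 0.69) and replicate 5 was near the Axin2+ range. The difference was -1.15 ± 0.26 (adjusted p = 0.00726 in limma). Its size rested on which SP-C+ arrays were used, being -1.60 ± 0.15 without replicates 4 and 5 and -0.48 ± 0.13 without replicates 1, 2 and 3. The groups did not overlap, so leaving out arrays could not turn the direction. Efna4, the next ephrin gene along chromosome 3, averaged 8.63 ± 0.06 in Axin2+ arrays, against 8.90 ± 0.21 in SP-C+ arrays (SD, n = 5). Its difference of -0.27 did not pass (adjusted p = 0.0824 in limma). Slc50a1 and Adam15, the genes on either side of the 3 ephrins, did not pass (-0.22 and 0.22).

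Efna5 measured 6.65, 6.46, 6.38, 6.03 and 6.09 in Axin2+ arrays, against 6.67, 6.74, 6.92, 6.83 and 6.73 in SP-C+ arrays. Axin2+ replicate 1 came within 0.02 of the lowest SP-C+ array, and here the Axin2+ arrays were the more variable (SD 0.26, against 0.10). The difference was -0.46 ± 0.12 (adjusted p = 0.0157 in limma). When SP-C+ replicates 1, 2 and 3 were left out it kept its size but missed the threshold with a wider SE (-0.46 ± 0.16, adjusted p = 0.108). Efna2 overlapped, at 8.52 ± 0.10 in Axin2+ and 8.45 ± 0.22 in SP-C+ arrays (SD, n = 5).

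Of the transmembrane ephrin B ligands only Efnb2, which marks arteries, passed. It measured 9.22, 9.25, 9.73, 9.69 and 9.54 in Axin2+ arrays, against 9.70, 10.25, 10.10, 9.78 and 9.81 in SP-C+ arrays, and the groups overlapped slightly. Its difference of -0.44 ± 0.13 (adjusted p = 0.0371 in limma) was the least secure call of the families. It was lost without any one of Axin2+ replicates 1, 2 and 5 (-0.38, -0.38 and -0.46, adjusted p = 0.0901, 0.0904 and 0.0595) and of SP-C+ replicates 2 and 3 (-0.36 and -0.40, adjusted p = 0.0842 and 0.086), and with SP-C+ replicates 4 and 5 alone (-0.31, adjusted p = 0.24). Efnb1 averaged 10.27 ± 0.07 in Axin2+ arrays, against 10.24 ± 0.10 in SP-C+ arrays (SD, n = 5), with an interval of -0.13 to 0.19, and Efnb3 differed by -0.09.

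Robo2, a Slit receptor with known roles in kidney and nerve outgrowth, measured 5.52, 5.02, 5.35, 5.19 and 5.27 in Axin2+ arrays, against 5.47, 5.88, 5.94, 5.91 and 5.95 in SP-C+ arrays. SP-C+ replicate 1 stood apart from its group and was the only SP-C+ array within the Axin2+ range. The difference was -0.56 ± 0.11 (adjusted p = 0.00427 in limma). Robo2 was the only called member below the 50th percentile of mean level, where array values understate change, and it passed under all 21 alternatives that kept it.

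Robo4, a receptor of endothelial cells, measured 5.40, 5.48, 5.54, 5.31 and 5.16 in Axin2+ arrays, against 6.25, 5.68, 5.74, 5.47 and 5.44 in SP-C+ arrays. The highest value was that of SP-C+ replicate 1, the array with the highest endothelial list mean, and a link between the values was not tested. The difference of -0.34 did not pass (adjusted p = 0.132 in limma). It was -0.51 when SP-C+ replicates 4 and 5 were left out and -0.08 when replicates 1, 2 and 3 were. Robo3, a receptor of commissural neurons, lay at 4.53 ± 0.11 in Axin2+ and 4.55 ± 0.17 in SP-C+ arrays (SD, n = 5).

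In Slit3, Slit2, Robo1, Unc5d and Ephb6 SP-C+ replicates 4 and 5 lay above replicates 1, 2 and 3, as they also did in Epha7 and Ephb4. Slit3, a secreted repellent, measured 10.22, 10.28, 8.65, 9.02 and 8.97 in Axin2+ arrays, against 8.34, 8.37, 8.24, 9.82 and 10 in SP-C+ arrays. Axin2+ replicates 1 and 2 and SP-C+ replicates 4 and 5 were about 0.8 or more above every other array. The difference between the groups was 0.47 ± 0.42 and did not pass (adjusted p = 0.513 in limma).

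Slit2, the ligand that repels through Robo1 and Robo2, measured 9.51, 9.51, 9.32, 9.37 and 9.19 in Axin2+ arrays, against 8.98, 8.65, 8.94, 9.36 and 9.53 in SP-C+ arrays. SP-C+ replicates 4 and 5 lay within or just above the Axin2+ range and the other 3 below it. Robo1, its receptor in lung epithelium and mesenchyme, measured 9.77, 9.61, 9.83, 9.61 and 9.72 in Axin2+ arrays, against 9.15, 9.29, 9.35, 9.79 and 10.25 in SP-C+ arrays. Again SP-C+ replicates 1, 2 and 3 were below every Axin2+ array and replicate 5 above every one.

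Unc5d, a dependence receptor for netrin, measured 7.18, 7.22, 6.71, 6.85 and 6.74 in Axin2+ arrays, against 6.36, 6.29, 6.51, 6.87 and 7.43 in SP-C+ arrays. Ephb6, an Eph receptor without kinase activity, measured 7.56, 7.59, 7.17, 7.38 and 7.32 in Axin2+ arrays, against 7.23, 7.43, 7.58, 8.21 and 8.24 in SP-C+ arrays. For both, SP-C+ replicates 4 and 5 were the highest of their group.

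**Figure D3:**
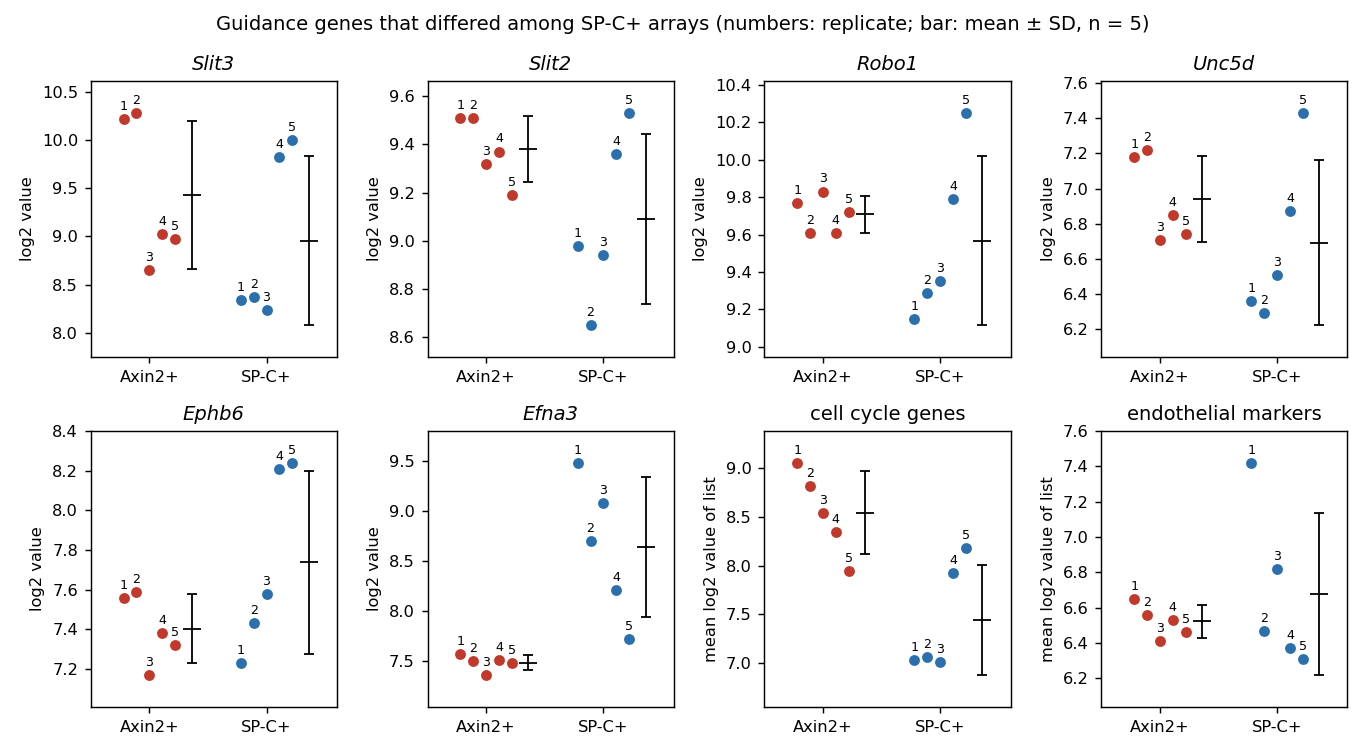
Value of each array for 6 guidance genes that differed among SP-C+ arrays, beside the mean of the cell cycle genes and of the endothelial markers. Numbers name the replicate, and bars give the mean ± SD (n = 5). SP-C+ replicates 4 and 5 are above replicates 1, 2 and 3 in Slit3, Slit2, Robo1, Unc5d, Ephb6 and the cell cycle mean and below them in Efna3, and SP-C+ replicate 1 is highest in the endothelial mean.

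The choice of SP-C+ arrays therefore changed the differences of these genes. With all 10 arrays the differences were 0.29 in Slit2, 0.14 in Robo1, 0.25 in Unc5d and -0.33 in Ephb6. None passed (adjusted p = 0.215, 0.653, 0.463 and 0.265 in limma). Without SP-C+ replicates 4 and 5 the differences were 1.11 in Slit3, 0.52 in Slit2, 0.45 in Robo1, 0.55 in Unc5d and -0.01 in Ephb6. Without SP-C+ replicates 1, 2 and 3 they were -0.48, -0.06, -0.31, -0.21 and -0.82. Other members moved too. Epha2 differed by -0.03 and Ephb3 by 0.10 without replicates 4 and 5. These values were 0.49 and 0.48 without replicates 1, 2 and 3. No p is given here for these differences. The arrays left out are the ones in which these genes were seen to stand apart, which fixes the direction of the shift and narrows the spread. The counts that follow rest on the same division and carry the same limit. Over the families, 8 members were past the threshold as higher and 6 as lower without SP-C+ replicates 4 and 5, beside 9.57% and 9.82% of all genes. Without SP-C+ replicates 1, 2 and 3 there were 3 higher and 3 lower, beside 6.78% and 6.02%. SP-C+ replicates 4 and 5 lay both above or both below the other 3 in 16 of the 35 members, 7 above and 9 below. The same was so for 14.4% (above) and 14.8% (below) of all genes, and the difference in shares was not tested. Cell cycle list means were 7.01 to 7.06 in SP-C+ replicates 1, 2 and 3 and 7.92 and 8.18 in replicates 4 and 5, and in Axin2+ arrays they were 9.06, 8.82, 8.54, 8.35 and 7.95. Their part in these differences was not tested. Slit1 was dim, at 5.84 ± 0.12 in Axin2+ and 5.86 ± 0.15 in SP-C+ arrays (SD, n = 5), with an interval of -0.22 to 0.18 for the difference.

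Slit2 and Slit3 each contain a microRNA gene, Mir218-1 and Mir218-2, whose shared product is known to repress Robo1 and Robo2, and both had a probe set. They were chosen after their values were seen. The mature sequence is shown because it is the same from both genes, with its seed (bases 2 to 8) in capitals, as RefSeq gives it on GRCm38.p6.
mmu-miR-218-5p: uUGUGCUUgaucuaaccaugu
The Mir218-1 probe set measured 6.50, 6.29, 6.61, 6.38 and 6.16 in Axin2+ arrays, against 5.82, 5.43, 5.63, 6.22 and 6.38 in SP-C+ arrays. SP-C+ replicates 4 and 5 were again the highest of their group, as for Slit2, and the difference of 0.50 ± 0.17 did not pass (adjusted p = 0.058 in limma). The Mir218-2 probe set differed by 0.02 ± 0.08 (adjusted p = 0.904 in limma) and did not show the spread of Slit3. It was dim, with means of 4.59 in Axin2+ and 4.57 in SP-C+ arrays, below the 25th percentile of mean level (4.768). Background signal there limits what spread can be seen. Whether these probe sets detect the microRNA, its precursor or the Slit transcript is not given in the sources used here.

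Genes that work with these ligands and receptors moved in both directions as well. Of 61 measured partner and effector genes 12 were higher and 8 lower in Axin2+ arrays, 32.8% against 17.6% of all genes, with a median difference of -0.02. They were brighter as a list, since 47 of the 61 lay above the 50th percentile of mean level. When the genes above it were tested alone, 23 of these 47 were called, beside 34.1% of all such genes. The difference in shares was not tested. By pathway, 5 of 18 Slit and Robo partners were higher and 4 lower. Of 25 Eph and ephrin effectors 5 were higher and 4 lower, and of 18 netrin partners 2 were higher and 0 lower.

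Flrt3, a cell adhesion protein that binds Unc5 receptors and Robo1, rose most. It measured 10.21, 10.01, 10.40, 10.17 and 10.20 in Axin2+ arrays, against 9.23, 8.86, 8.98, 8.42 and 8.34 in SP-C+ arrays, with no overlap. The difference was 1.43 ± 0.16 (adjusted p = 2.66e-05 in limma). Tiam1, which activates Rac downstream of Eph receptors and ephrins, averaged 6.38 ± 0.05 in Axin2+ arrays, against 5.55 ± 0.11 in SP-C+ arrays (SD, n = 5), a rise of 0.82 ± 0.07 (SE, adjusted p = 4.85e-06 in limma). Anks1, an adaptor of Eph receptors, rose by 0.81 ± 0.10 (adjusted p = 0.000109 in limma).

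The steepest falls were smaller. Cables1, an adaptor that links Robo-bound Abl kinase to the beta-catenin held by N-cadherin, was at 7.50 ± 0.15 in Axin2+ arrays, against 8.18 ± 0.17 in SP-C+ arrays (SD, n = 5), and fell by 0.68 ± 0.10 (SE, adjusted p = 0.000388 in limma). Rap1gap, which inactivates Rap1, differed by -0.56 ± 0.09 (adjusted p = 0.00104 in limma). Vav2, an exchange factor of Eph signalling, differed by -0.40 ± 0.08 (adjusted p = 0.00323 in limma) and missed the threshold when SP-C+ replicates 1, 2 and 3 were left out (-0.35, adjusted p = 0.058). The remaining 9 rises lay between 0.34 and 0.57 and the remaining 5 falls between -0.32 and -0.25.

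**Figure D4:**
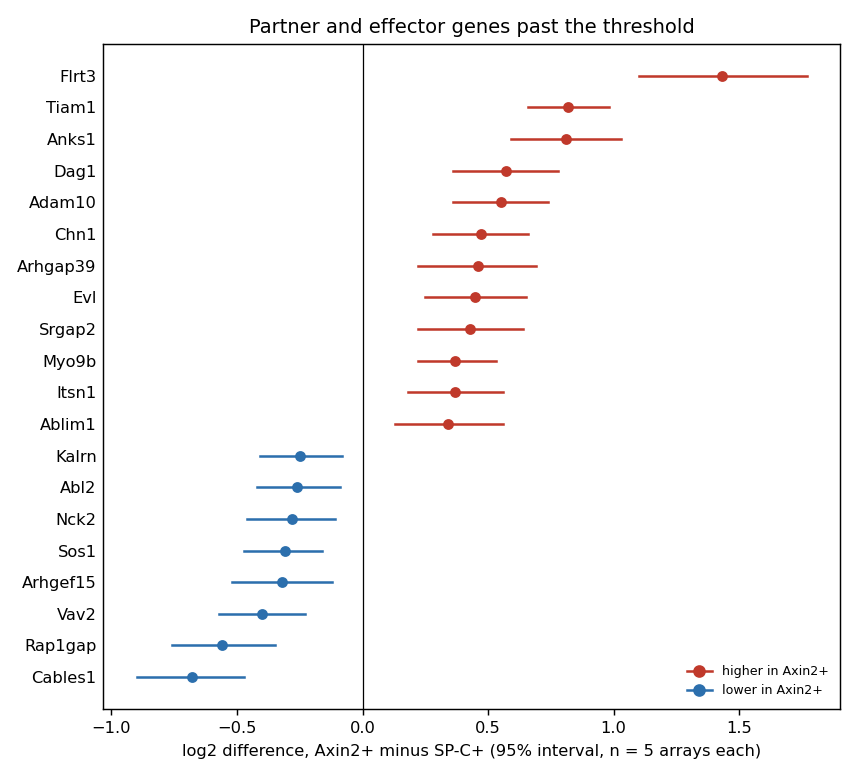
Differences of the 20 partner and effector genes past the threshold. The horizontal axis is the log2 difference, Axin2+ minus SP-C+, with dots for the estimate and lines for its 95% interval (n = 5 arrays each). All 20 had an adjusted p under 0.05. The 12 rises (red) reach 1.43 in Flrt3 and the 8 falls (blue) reach -0.68 in Cables1.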

How the data were processed

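Gene expression in 10 samples was measured on Affymetrix arrays, from 100 ng of total RNA each, per the labels' protocols. The table holds log2 values that the authors had normalized before they deposited it. Tools listed by the submitters' processing notes are limma, oligo and RMA, with no version or role. No source gives the log base: values of 1.69 to 14.16 are in keeping with log2, array medians lay between 5.89 and 5.97, and the number of arrays limits the precision. RMA-type values understate change in dim genes. Of 41345 probe sets, the platform's annotation, which may be old, gives 23521 with 1 symbol, 1814 with several and 16010 with none.

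Groups came from sample titles. limma 3.58.1 in R 4.3.3 (lmFit, eBayes, two-sided, no covariates) was fitted to all genes, after being tested on simulated data. Members and gene lists were chosen with earlier results of these data known. All called members were named with each array's value. The 3 largest called rises and falls of the partner genes and the largest called change of each marker list were named with their differences. Of 65 partner names 61 matched. Promoters and microRNAs came from RefSeq, GRCm38.p6. Alternatives were the replicate block, median centring, quantile normalization, filters at the 25th or 50th percentile of mean level, averaging a gene's probe sets, testing all probe sets, trended robust variances, array weights, an adjusted p under 0.01, and leaving out arrays. No scan dates were used, so array batches were not examined.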

Additional observations from a re-analysis of the deposited data

Results flagged for a closer look

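In each group of 5 arrays, the gap between the highest or lowest array and its neighbour was compared with the group's range. Of 70 groups (35 genes in each population) 3 held an array that stood apart by Dixon's criterion, and chance alone gives about 1 group in 20. Robo2 was 5.47 in SP-C+ replicate 1, against 5.88 to 5.95 in the other SP-C+ arrays. That array also had the highest endothelial list mean (7.42), and a link between the values was not tested. Epha8, an Eph receptor of the nervous system, was 5.13 in SP-C+ replicate 4, against 5.69 to 5.87. Robo3 was 4.84 in SP-C+ replicate 2, against 4.45 to 4.50. Epha8 and Robo3 are dim and were called in no setting.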

How the results depend on the processing

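Each of 42 named genes was recomputed under up to 22 alternatives, 907 values in all, of which 870 stayed on their side of the threshold, 15 lost a call, 22 gained one and 0 called values turned direction. Members called higher numbered 4 in each fit without 1 array (4 to 4), 8 without SP-C+ replicates 4 and 5, and 3 without SP-C+ replicates 1, 2 and 3, a division of the arrays made with their values known. Members called lower numbered 3 to 6 in fits without 1 array, 8 with median centring, which shifts every difference by -0.09, and 2 at an adjusted p under 0.01, a stricter threshold. Called partner genes numbered 15 to 23 in fits without 1 array. Uncalled Epha1, Efna4 and Unc5b passed in 7, 4 and 3 of 22 alternatives. Both groups carry replicate numbers 1 to 5, but same-numbered arrays did not deviate together (correlations of -0.229 to 0.0135 over all genes). In 0 of 5 cases was the same-numbered array the best match. These values gave no sign that the numbers pair the samples, which does not exclude a pairing. With the replicate number as a block 4 members were higher and 3 lower, Efnb2 missing the threshold (adjusted p = 0.056), and 15 partner genes were called. Dim members, 13 of the 35 below the 50th percentile, carry background signal that limits what can be seen.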
